A study of Bos taurus with 13 samples.

Results

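The genes described here code for receptors of blood neutrophils and for enzymes of their granules and extracellular traps, and 9 gene names were sought: *CSF3R*, *CXCR1*, *CXCR2*, *FPR1*, *TREM1*, *CD177*, *MMP9*, *MMP25* and *PADI4*. The members were a list of names, with no threshold on a measured value. Of the 9 names, 6 had a row among the 16095 named genes of the count tables. *CXCR1* and *CXCR2*, the receptors of interleukin 8, and *FPR1*, the receptor of formyl peptides, had no row under these names or under a RefSeq synonym, and they were not analysed here. Of the 6 genes with a row, 5 passed the filter on low counts, and *CD177* did not.

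Whole blood RNA of 13 lactating, clinically healthy cows of a single farm (breed given as Italian Red Pied) had been sequenced, 7 from the high group (replicates 1 to 7) and 6 from the low group (replicates 8 to 13). The groups stand for the upper and the lower end of a ranking of the herd by cortisol in milk, a hormone that rises under stress. No cow was treated, each library is a separate cow, and the labels give no batch. Blood was drawn into tubes that fix RNA, without globin depletion, so all circulating cells contributed. Counts on named genes ranged from 12198355 to 23709740 per cow in the high group (median 18595924) and from 11045599 to 28124575 in the low group (median 17005346).

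Neutrophils are the first leukocytes to enter an infected tissue, and in cattle they are the main defence of the udder. The growth factor G-CSF drives their production through its receptor, encoded by *CSF3R*. *TREM1* encodes a surface receptor that amplifies inflammatory signals, and *CD177* a surface glycoprotein that binds the endothelial adhesion molecule PECAM1. *MMP9* encodes gelatinase B, a metalloproteinase stored in granules, and *MMP25* a membrane-bound metalloproteinase of leukocytes. *PADI4* encodes the enzyme that converts arginine residues of histones to citrulline, a step in the release of extracellular traps. Cortisol and synthetic glucocorticoids are known to move neutrophils from the vessel wall into the circulation, and the comparison addresses whether the level of these genes in blood differed between the cortisol groups.

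The 6 genes lie on 6 chromosomes, and no other named gene overlapped any of them in the annotation of the count tables (UMD3.1). *CSF3R* spans chr3:110001845-110012507 on the plus strand with 2562 bases of exons, and *TREM1* spans chr23:15148077-15163188 on the minus strand with 1180 bases. *CD177* spans chr18:51877254-51888120 on the plus strand with 1627 bases of exons. *MMP9* (chr13:75466513-75473824, plus strand) has 2340 bases of exons, *MMP25* (chr25:2478689-2488857, plus strand) 1993 and *PADI4* (chr2:135836956-135864707, minus strand) 2222. Values are therefore summed over the exons of each gene and do not separate its transcripts.

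The 6 genes covered a wide span of levels, with *CSF3R* far above the others and *CD177* close to the limit of detection. *CSF3R* ranked 16 among the 16095 named genes by mean CPM (counts on the gene scaled to the TMM-adjusted total on named genes) and 59 per gene length, and its share of a library was 0.227% to 0.566%. Per gene length, its level was 1378 ± 426 RPKM (CPM divided by exon length in kilobases, SD, n = 13). *TREM1* followed with 112 ± 42.7 RPKM, *PADI4* with 81.7 ± 38.5 and *MMP25* with 80.9 ± 27.8. *MMP9* was at 12.3 ± 4.76 RPKM and *CD177* at 0.262 ± 0.231 RPKM.

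Within the cow, 4 of the 5 neighbours in the order of mean log2 RPKM differed (exact paired sign-flip test, two-sided, Benjamini-Hochberg over the 5 neighbours). *CSF3R* exceeded *TREM1* by 3.65 on the log2 scale (SD 0.43) in 13 of 13 cows, with an exact p of 0.000244, the smallest that this test allows. *TREM1* exceeded *MMP25* by 0.46 (SD 0.50) in 10 of 13 cows (exact p = 0.0083, adjusted p = 0.0104). The levels of *MMP25* and *PADI4* did not differ beyond their spread, with a mean log2 ratio of 0.02 (SD 0.46) and an exact p of 0.878. *PADI4* exceeded *MMP9* by 2.72 (SD 0.42) in 13 of 13 cows. *MMP9* also exceeded *CD177* in 13 of 13 cows, with at least 304 counts per cow against at most 18. The log2 ratio of *MMP9* to *MMP25* counts was between -3.11 and -1.36, so transcripts of the granule-stored metalloproteinase were below those of the membrane-bound one in every cow, while the proteins were not measured.

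**Figure D1:**
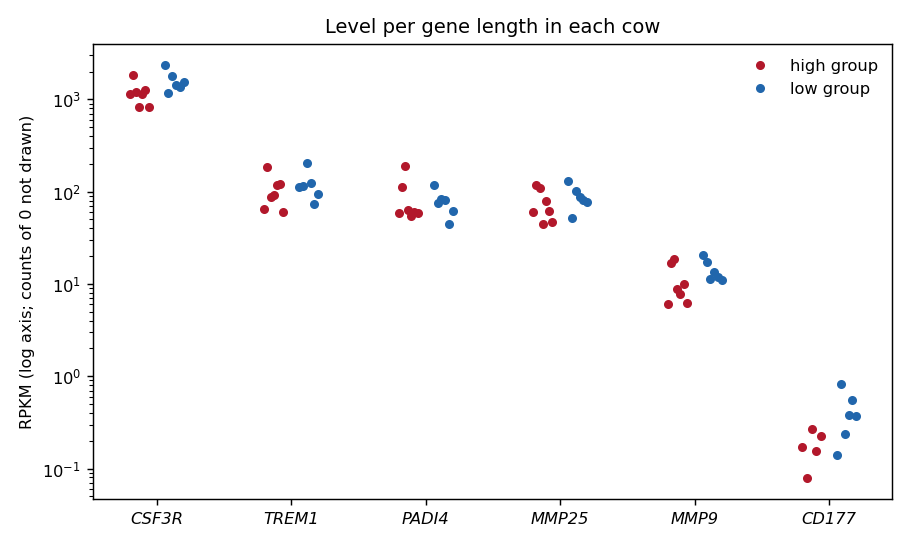
RPKM of the 6 genes (log axis) in each of the 13 cows, with the high group in red and the low group in blue; the 2 cows with a *CD177* count of 0 are not drawn for that gene. *CSF3R* lies above the other genes in all 13 cows, and *MMP25* and *PADI4* share 1 range.

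All 5 tested genes varied more between cows than the usual tested gene, by description and over both groups together. The coefficient of variation of CPM was 30.9% for *CSF3R*, 34.4% for *MMP25*, 38.1% for *TREM1*, 38.7% for *MMP9* and 47.1% for *PADI4*, against a median of 21.3% over the tested genes. Low replicate 8 was among the 3 highest cows for 4 of the 5 genes, and high replicate 2 was so as well. High replicate 7 was among the 3 lowest cows for 4 of the 5. In a bulk sample of blood, fewer cells of a type and less RNA per cell cannot be told apart.

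None of the 5 tested genes differed between the high and low groups after adjustment over all 11033 genes tested (edgeR quasi-likelihood test, adjusted p = 0.998 for each). Over all tested genes, 0% were called in either direction. At an unadjusted p under 0.05, 1 of the 5 genes, *CSF3R*, was under-expressed in the high group, against 1.16% of all tested genes in that direction and 2.09% in both. The log2 fold changes of the 5 genes had a median of -0.25, and those of all tested genes a median of 0.01. DESeq2 also called 0 of these genes, and 1 gene of the whole table, *CYP4X1*, named after its value was seen. Its log2 fold change in that fit was 21.3 ± 3.01 (SE), and edgeR without the filter called 0 genes. *CSF3R* and *CD177* stand on a gene list that the study drew from cows that include these, so their direction here is not independent evidence.

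*CSF3R* was at 2970, 4676, 3066, 2108, 2939, 3262 and 2140 CPM in high replicates 1 to 7. It was at 6101, 3024, 4551, 3685, 3461 and 3912 CPM in low replicates 8 to 13. The groups overlapped, but 6 of the 7 cows of the high group were below the median of the low group and 4 were below every cow of the low group. The means were 3023 ± 858 CPM in the high group and 4122 ± 1093 CPM in the low group (SD). The fitted log2 fold change was -0.45 ± 0.19 (SE, edgeR, unadjusted p = 0.0324), and the exact permutation test of mean log2 CPM over all 1716 splits gave a difference of -0.46 with p = 0.0524 (two-sided). Without low replicate 8, the highest cow, the log2 fold change was -0.30, and without high replicate 2 it was -0.58. The unadjusted edgeR p in these fits was 0.116 and 0.00412. The unadjusted p was also above 0.05 without high replicate 4, high replicate 7 or low replicate 10.

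The share of haemoglobin transcripts tended to be higher where *CSF3R* was lower, without an adjusted p under 0.05. It was between 0.0282% and 0.815% of counts in the high group and between 0.0114% and 0.0552% in the low group, and the score of 6 erythroid genes (8 sought, none at 0 in all cows) was higher in the high group at an unadjusted exact permutation p of 0.0105 (adjusted p = 0.0944 over 9 marker lists). Across the 13 cows, log2 CPM of *CSF3R* had a Pearson r of -0.67 with the log2 haemoglobin share (permutation p = 0.0119, adjusted p = 0.0562 over 18 relations; rho -0.68, permutation p = 0.0129), -0.61 within the high group, -0.28 within the low group and -0.54 without the 2 cows farthest from the median share. With the log2 haemoglobin share as a covariate, the log2 fold change of *CSF3R* was -0.16 ± 0.23 (SE, edgeR, unadjusted p = 0.484). With the score of 13 other neutrophil genes as a covariate it was -0.36 ± 0.18 (unadjusted p = 0.0608). That neutrophil score did not differ between the groups beyond its spread (exact permutation p = 0.388, summed level 3950 to 7623 CPM in the high group and 5466 to 6909 CPM in the low group), and the part of red cell transcripts in the difference was not tested.

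*TREM1* was at 77.3, 219, 103, 110, 141, 142 and 72.0 CPM in high replicates 1 to 7 and at 132, 137, 243, 145, 87.2 and 112 CPM in low replicates 8 to 13. The groups lay over the same range, and the highest cow of each, high replicate 2 and low replicate 10, stood clear of the rest. The means were 123 ± 50.3 CPM in the high group and 143 ± 53.2 CPM in the low group, with a log2 fold change of -0.21 ± 0.26 (SE, edgeR, unadjusted p = 0.427). Without low replicate 10 the log2 fold change was 0.01, and with the haemoglobin share as a covariate it was 0.03.

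*CD177* was counted at 6, 0, 0, 2, 10, 4 and 8 in high replicates 1 to 7 and at 6, 18, 6, 17, 10 and 10 in low replicates 8 to 13, 97 counts in all. These counts correspond to a mean of 0.209 ± 0.172 CPM in the high group and 0.681 ± 0.401 CPM in the low group. All 7 cows of the high group were below the median of the low group, 3 were below every cow of the low group, and 4 cows of the low group were above every cow of the high group. The exact permutation test of mean log2 CPM gave a difference of -1.40 with p = 0.0146 (two-sided, not adjusted for the 6 genes tested this way). The size of this difference depends on the prior count, since 2 cows were at 0, and with a prior count of 0.5 in place of 2 it was -2.03 (exact permutation p = 0.0204). The gene was too low for the edgeR fit, and without the filter its adjusted p was 0.998 (log2 fold change -1.58 ± 0.64, SE). A count of 0 allows up to 3 counts, which is 0.161 CPM in high replicate 2 and 0.246 CPM in high replicate 3.

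The *CD177* counts were even in 12 of the 13 cows. Even values made up between 69.6% and 74.2% of all gene counts from 1 to 20 in each cow, and the header of the tables lists no option that would count a read pair once. Whether both reads of a pair were counted was not tested.

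*MMP9* was at 14.3, 39.9, 43.9, 20.4, 18.1, 23.5 and 14.7 CPM in high replicates 1 to 7 and at 47.7, 40.6, 26.6, 31.3, 27.6 and 26.2 CPM in low replicates 8 to 13. In the high group 5 of 7 cows were below every cow of the low group, while high replicates 2 and 3 lay near its upper end. The means were 25.0 ± 12.1 CPM and 33.3 ± 8.87 CPM, with a log2 fold change of -0.42 ± 0.27 (SE, edgeR, unadjusted p = 0.131) and an exact permutation p of 0.117 for mean log2 CPM. The unadjusted edgeR p was 0.0442 without high replicate 2 and 0.0241 without high replicate 3, and limma-voom gave 0.036 with all cows. The log2 fold change was -0.29 without low replicate 8 and -0.28 with the haemoglobin share as a covariate. The unadjusted edgeR p in these fits was 0.311 and 0.448, so *MMP9* lay on either side of 0.05 with the cows and the tool used.

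*MMP25* was at 120, 238, 217, 88.7, 157, 124 and 94.8 CPM in high replicates 1 to 7 and at 261, 104, 204, 173, 161 and 154 CPM in low replicates 8 to 13. The groups overlapped over nearly the whole range. The log2 fold change was -0.25 ± 0.24 (SE, edgeR, unadjusted p = 0.321), -0.10 without low replicate 8 and -0.02 with the haemoglobin share as a covariate.

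*PADI4* was at 131, 252, 417, 143, 121, 133 and 132 CPM in high replicates 1 to 7 and at 259, 166, 187, 182, 99.8 and 137 CPM in low replicates 8 to 13. High replicate 3 was above all other cows, 5 of the 7 cows of the high group were within 121 to 143 CPM, and no cow of the high group was below every cow of the low group. The log2 fold change was 0.14 ± 0.29 (SE, edgeR, unadjusted p = 0.632), and it was -0.18 without high replicate 3.

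**Figure D2:**
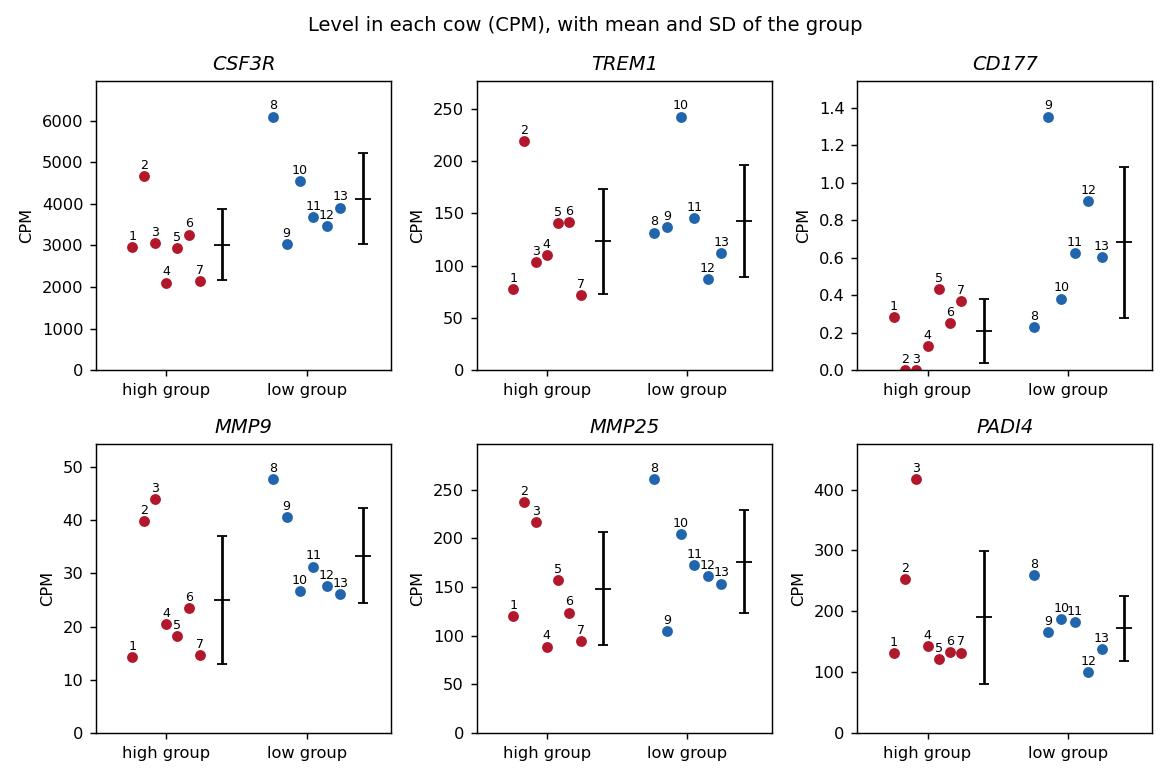
CPM of each gene in each cow, numbered by replicate, with the mean and SD of the 7 cows of the high group and of the 6 cows of the low group in black. *CSF3R* and *CD177* lie lower in most cows of the high group, and high replicate 3 stands apart for *PADI4* at 417 CPM.

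**Figure D3:**
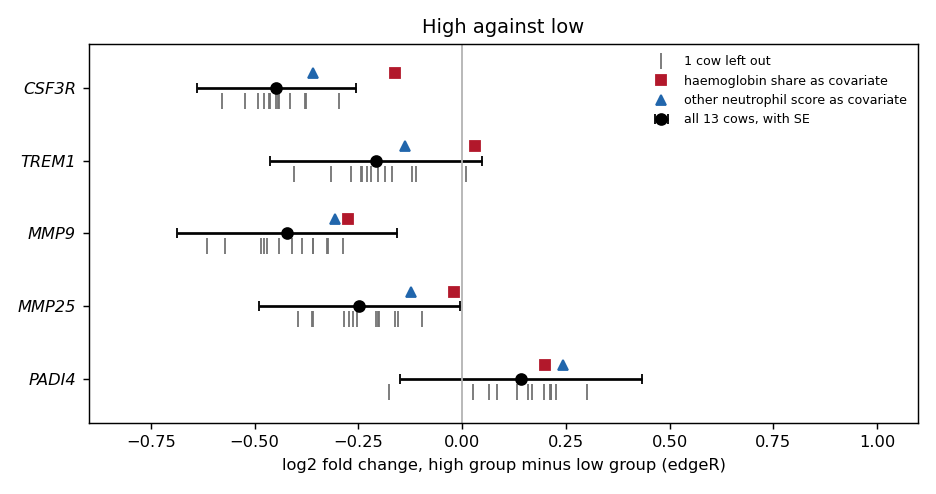
Log2 fold change of the 5 tested genes, high minus low, from edgeR with all 13 cows (circle, with SE), with 1 cow left out (ticks), and with the haemoglobin share (square) or the other neutrophil score (triangle) as a covariate. Estimates of *CSF3R*, *MMP9* and *MMP25* remained below 0 in all of these fits, and those of *TREM1* and *PADI4* lie on both sides of 0.

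Ratios between genes of 1 library do not depend on how the library is scaled, and the 10 ratios of the 5 tested genes were compared after the values had been seen. One of them, *MMP9* to *PADI4*, had an exact permutation p under 0.05 and none passed adjustment over the 10 ratios. The log2 ratio of *MMP9* to *PADI4* counts was -2.90 ± 0.30 (SD) in the high group and -2.34 ± 0.35 (SD) in the low group, a difference of -0.56 (exact permutation p = 0.0117, adjusted p = 0.117). The ratio of *CSF3R* to *MMP25* had the smallest spread of the 10, with an SD of 0.26 on the log2 scale over the 13 cows.

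Across the 13 cows, levels of *CSF3R* and *MMP25* went together most closely among the 15 pairs of genes, with a Pearson r of 0.86 for log2 CPM (permutation p = 0.00014, adjusted p = 0.0021; Spearman's rho 0.82, adjusted p = 0.0162). The value was 0.84 within the high group, 0.93 within the low group and 0.76 without the 2 cows farthest from the median of *CSF3R*. *MMP9* and *PADI4* had an r of 0.73 (permutation p = 0.00409, adjusted p = 0.0307; rho 0.76, adjusted p = 0.0286), with 0.90 within the high group, 0.67 within the low group and 0.76 without the 2 farthest cows. In all, 6 of the 15 pairs had an adjusted p under 0.05 by Pearson's r, 5 of them positive. By Spearman's rho, only *CSF3R* with *MMP25* and *MMP9* with *PADI4* did so. The next pair by rank, *MMP9* with *MMP25*, had a rho of 0.69 (permutation test, adjusted p = 0.0562).

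The count of 6 pairs was not stable. It was 1 without high replicate 2, high replicate 4, high replicate 5 or low replicate 8, and also 1 when the score of the other neutrophil genes was subtracted from each value. It was 8 when values were centred within each group. It was 2 without high replicates 1, 3, 6 or 7 or low replicates 10, 11 or 13, 3 without low replicate 12 and 6 without low replicate 9. The pair of *CSF3R* and *MMP25* remained under an adjusted p of 0.05 in all 17 alternatives, with r between 0.79 and 0.94. *MMP9* and *PADI4* did so in 11 of the 17. With 1 cow left out, r was 0.68 to 0.80 for *MMP9* with *PADI4* and 0.53 to 0.74 for *CSF3R* with *MMP9*. It was 0.58 to 0.85 for *MMP9* with *MMP25*, 0.58 to 0.72 for *MMP25* with *PADI4* and -0.75 to -0.47 for *PADI4* with *CD177*.

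*CD177* was the exception to these positive values, with r between -0.66 and -0.07 with the other 5 genes over all cows. With *PADI4* it was -0.66 (permutation p = 0.0154, adjusted p = 0.0406; rho -0.48, adjusted p = 0.179), and without high replicate 3 it was -0.47 (adjusted p = 0.169). Centred within each group, the r of *CD177* was -0.83 with *PADI4* (adjusted p = 0.0021, permutation test), -0.77 with *MMP25* (adjusted p = 0.00817), -0.71 with *MMP9* (adjusted p = 0.021), -0.68 with *CSF3R* (adjusted p = 0.0215) and -0.43 with *TREM1* (adjusted p = 0.158). These values rest on the 0 to 18 counts of *CD177* given above.

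**Figure D4:**
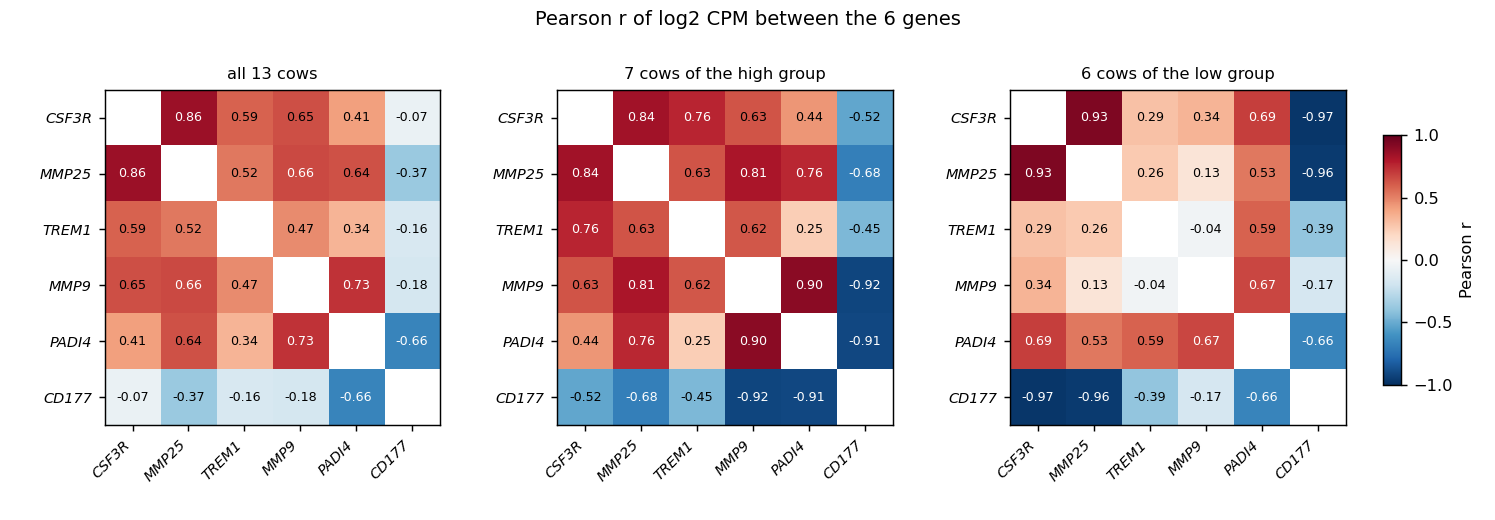
Pearson r of log2 CPM for each pair of the 6 genes over all 13 cows (left), the 7 cows of the high group (middle) and the 6 cows of the low group (right), from -1 (blue) to 1 (red). *CSF3R* and *MMP25* are high in all 3 panels, and *CD177* is negative with each other gene.

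The levels also moved with a property of the libraries. The share of counts on the unnamed entry, which pools genes without a name, ranged from 13.9% to 16.7%, and all 5 tested genes were lower where it was higher. For *PADI4* the Pearson r was -0.79 (permutation p = 0.00101, adjusted p = 0.0182 over 18 relations; rho -0.90, adjusted p = 0.0018), and it was -0.73 within the high group, -0.98 within the low group and -0.86 without the 2 cows farthest from the median share. For *MMP9* it was -0.75 (permutation p = 0.00322, adjusted p = 0.029; rho -0.77, adjusted p = 0.024), and -0.56 without the 2 farthest cows. For *CSF3R*, *TREM1* and *MMP25* the r was -0.64, -0.63 and -0.67, with adjusted p between 0.0562 and 0.0639. Without the 2 farthest cows it was -0.22, -0.65 and -0.42, so that of *CSF3R* rested largely on these 2 cows. The unnamed share overlapped between the groups, 14.5% to 16.7% in the high group and 13.9% to 16.4% in the low group, and its part in the correlations between genes was not tested. None of the 5 genes had an adjusted p under 0.05 with the depth of the library.

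Scores of the marker lists, those of other neutrophil and immature neutrophil genes included, were compared with each gene in 54 relations. Of these, 1 had an adjusted p under 0.05, that of *PADI4* with the score of eosinophil genes. Eosinophils are granulocytes that take part in defence against parasites and in allergy. Of the 7 eosinophil genes sought, 5 had a row, and 4 passed the filter and made the score. They were *ALOX15*, the arachidonate 15-lipoxygenase, *CCR3*, the eotaxin receptor, *IL5RA*, a chain of the interleukin 5 receptor, and *GATA1*. The last encodes a transcription factor that erythroid cells and the precursors of platelets also use. *PADI4* had a Pearson r of 0.90 with the score (permutation p = 5e-05, adjusted p = 0.0027), 0.96 within the high group, 0.80 within the low group and 0.73 without high replicates 2 and 3, the farthest cows. Spearman's rho was 0.73 (permutation p = 0.00588, adjusted p = 0.159), so the relation passed adjustment by r and not by rank.

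High replicate 3 had the highest eosinophil score (1.64 on the log2 scale, the others between -1.01 and 0.86) and the highest *PADI4* level. Without this cow r was 0.81 with an adjusted p of 0.067, and in the other alternatives run r was between 0.88 and 0.93 with an adjusted p under 0.05. Singly, *ALOX15* had an r of 0.94 with *PADI4*, *IL5RA* 0.87, *GATA1* 0.86 and *CCR3* 0.78. *PRG3*, the eosinophil gene below the filter, had an r of 0.15, and *MPO* of the immature neutrophil list had an r of 0.89 with *PADI4*. *MPO* was the highest of the 6 tested genes of its list, which ranged from -0.43 to 0.89 with a median of 0.50. For *CSF3R* the r with the 4 eosinophil genes of the score was between 0.03 and 0.27, and for *TREM1* between 0.05 and 0.29. For *MMP9* it was between 0.49 and 0.66, for *MMP25* between 0.25 and 0.53 and for *CD177* between -0.63 and -0.44. The eosinophil score had an r of 0.58 with *MMP9* (permutation test, adjusted p = 0.246), 0.79 within the high group and 0.76 within the low group. With *MMP25* its r was 0.40 (permutation test, adjusted p = 0.453), 0.74 within the high group and -0.03 within the low group. The summed level of the 5 eosinophil genes was 241 to 1224 CPM in the high group and 186 to 558 CPM in the low group, none was at 0 in all cows, and the score did not differ between the groups beyond its spread (exact permutation p = 0.507). Scores of immature neutrophil, platelet, B cell, T cell, monocyte, and cytotoxic and NK genes had exact permutation p between 0.273 and 0.829 for the groups, and the last 5 of these had r between -0.56 and 0.51 with the 6 genes.

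The 13 other neutrophil genes were present in every cow, with a lowest count of 82 for *IL1R2*. Their r with *CSF3R* had a median of 0.43, from -0.32 for *S100A8* to 0.92 for *FGR*, a tyrosine kinase of myeloid cells. With *PADI4* the median was 0.40. The score of 6 immature neutrophil genes had its highest r with *MMP25*, 0.77 (permutation p = 0.00217, adjusted p = 0.0586; rho 0.82, adjusted p = 0.0551; 0.89 within the high group, 0.62 within the low group and 0.58 without the 2 farthest cows). The alarmin gene *S100A8* had an r between -0.42 and -0.04 with each of the 5 tested genes, and *S100A12* was also below 0 with 4 of the 5. *S100A9*, in contrast, had an r between 0.15 and 0.69 with each of the 5. It was the 1 gene of the 13 with an unadjusted p under 0.05 between the groups, against 1.16% of all tested genes in that direction. Its log2 fold change was -0.44 ± 0.16 (SE, edgeR, unadjusted p = 0.0166, adjusted p = 0.998). The score of all 13 genes had no adjusted p under 0.05 with any of the 6 genes, with the highest r of 0.71 for *MMP9* (permutation p = 0.00496, adjusted p = 0.0893; rho 0.65, adjusted p = 0.259; 0.79 within the high group, 0.20 within the low group and 0.47 without the 2 farthest cows).

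**Figure D5:**
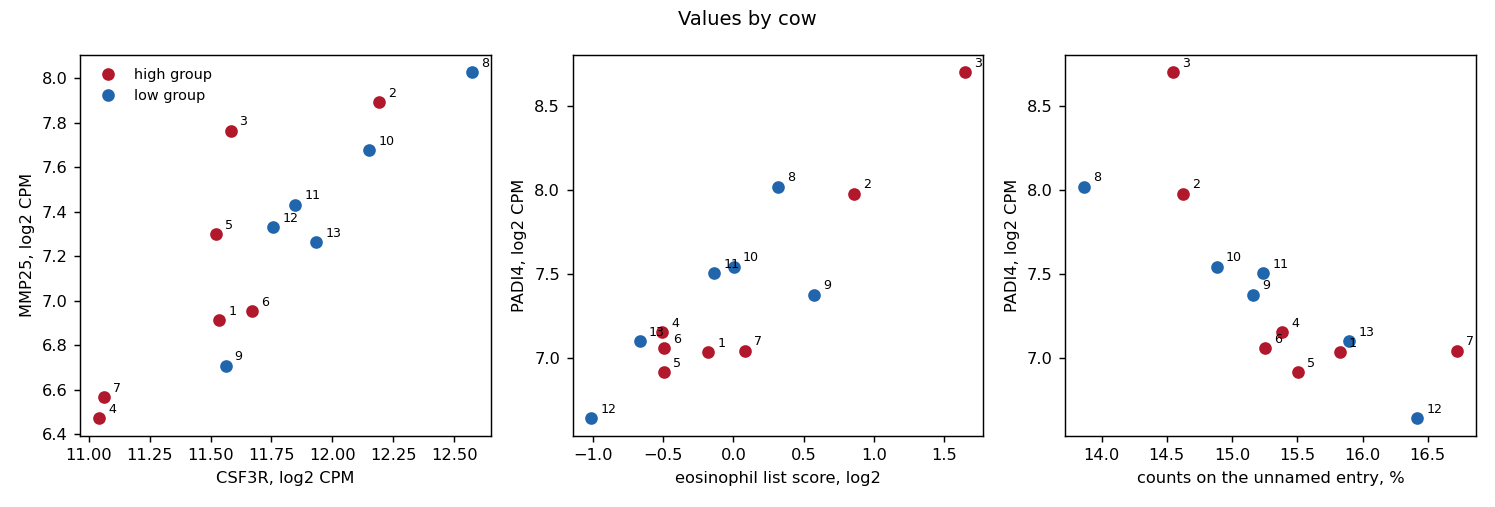
Log2 CPM of *MMP25* against *CSF3R* (left), and of *PADI4* against the eosinophil score (middle, mean of 4 genes centred on their own means, log2) and against the share of counts on the unnamed entry (right, %), 1 point per cow numbered by replicate, with the high group in red and the low group in blue. *MMP25* rises with *CSF3R* in both groups (r 0.86), and high replicate 3 stands at the far end of the eosinophil score.

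The tested genes whose pattern over the 13 cows was most like each of the 5 genes were ranked by Pearson's r of log2 CPM among 11028 others, as a description. For *CSF3R* they were *PLBD2* (r 0.96), *SELPLG* (0.96) and *CD68* (0.96). For *MMP25* they were *PBXIP1* (0.96), *DEDD2* (0.95) and *SPI1* (0.94). For *TREM1* they were *TTYH3* (0.90), *FCN2* (0.85) and *CRY2* (0.84). For *MMP9* they were *NLRX1* (0.94), *WIPI1* (0.93) and *VAT1L* (0.90). For *PADI4* they were *ALOX15* (0.94), *SMPD3* (0.94) and *HK3* (0.93). The first 3 places of the 5 genes shared no gene. *CD68* belongs to the monocyte list, and its log2 fold change was -0.53 ± 0.17 (SE, edgeR, unadjusted p = 0.00748, adjusted p = 0.998). Estimates were above 0 for 6 of the 8 genes of that list, and its score had an r of 0.30 with *CSF3R*. *VSIR* was most like the mean of the standardised genes (r 0.97), followed by *SMAP2* (0.95), *MEFV* (0.94), *NLRX1* (0.94) and *B4GALT1* (0.94). The cows share library, depth and scaling across all of these values.

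Of the 67 genes of the surrounding pathways with a row, 61 were tested and 0 had an adjusted p under 0.05, and 0 had an unadjusted p under 0.05 in the edgeR fit. Estimates were lower in the high group for 40 of them and higher for 21, with a median log2 fold change of -0.06 against 0.01 for all tested genes, of which 5148 of 11033 had lower and 5885 higher estimates. When high replicate 2 was left out, *SPI1*, *C5AR1* and *STAT5B* had an unadjusted p under 0.05, each with lower estimates in the high group.

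Among the genes that carry the G-CSF signal, 9 of 10 had estimates below 0, with a median of -0.11. *LYN*, a kinase of the Src family, had a log2 fold change of -0.18 ± 0.17 (SE), and the kinase *JAK1* of -0.02 ± 0.10. *STAT5B*, a transcription factor downstream of the receptor, had the smallest unadjusted p of all pathway genes (edgeR, 0.0533) with -0.20 ± 0.09, and was named after its value was seen. The ligand *CSF3* itself had a row and did not pass the filter.

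Other chemoattractant receptors had estimates on both sides, 4 of 6 below 0. *PTAFR*, the receptor of platelet-activating factor, had -0.15 ± 0.22 and *C5AR1*, a receptor of complement C5a, -0.39 ± 0.25 (SE), and *CXCR4*, which retains neutrophils in the marrow, 0.01 ± 0.21. Of the 14 genes of G protein signalling below such receptors, 12 had estimates below 0, and *GNAI2*, an inhibitory G protein subunit, had -0.13 ± 0.13 and the GTPase *RAC2* -0.08 ± 0.11. Both ligands tested, *ANXA1* and *PGLYRP1*, had estimates of 0.03 ± 0.19 and -0.33 ± 0.54. None of these passed the test.

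The adaptor of *TREM1*, *TYROBP*, had a log2 fold change of 0.00 ± 0.14 (SE), and the kinase *SYK* of 0.02 ± 0.11. Of the 10 other proteases and inhibitors tested, 7 had estimates above 0, among them *CTSC*, which activates the serine proteases of granules (0.14 ± 0.16), while *ADAM8* had -0.10 ± 0.22 and the inhibitor *TIMP2* -0.15 ± 0.17. Of the 5 genes of extracellular traps and citrullination, 4 had estimates below 0. *HMGB1* and *GSDMD*, the most abundant of them, had -0.09 ± 0.10 and -0.06 ± 0.13. *MPO*, myeloperoxidase of the primary granules, had the 1 estimate above 0, 0.68 ± 0.47 with 45 to 478 counts per cow. The integrin chains *ITGB2* and *ITGAM*, which partner CD177 on the neutrophil surface, had -0.08 ± 0.12 and 0.11 ± 0.13. *SPI1*, a transcription factor of myeloid cells, had -0.19 ± 0.17, and 3 of the 4 granulocyte transcription factors had estimates above 0. None of these passed the test.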

How the data were processed

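The authors deposited counts, the whole number of reads assigned to each gene name, without normalization. The file headers name featureCounts 1.4.6-p3 and Ensembl release 88 models for UMD3.1, while the submitters' processing notes name STAR 2.7.3, Subread 1.6.5 and ARS-UCD1.2. An unnamed entry, 13.9% to 16.7% of counts, was left out. The headers name alignments by animal numbers other than those naming the tables, in a folder whose path includes the word goat, while the labels give cattle. The group of a cow is that of its label, and it was not checked otherwise. The study states more cows than the 13 analysed here.

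The fit of high against low used edgeR 4.0.16 in R 4.3.3 (TMM, filterByExpr with minimum count 10 and minimum total 15, robust quasi-likelihood fit, no covariate, Benjamini-Hochberg over 11033 genes). The study used DESeq2, run here as an alternative (1.42.0) beside limma-voom (3.58.1), other scalings, no filter, covariates and each cow left out. The SE of a fold change was derived from the test statistic. Log2 CPM had a prior count of 2. CPM and RPKM were computed from the counts and the exon length in the tables. Single values were compared over all 1716 splits of the cows (smallest possible p 0.00058), and correlations with 100000 permutations (smallest possible p 1e-05). A score is the mean centred log2 CPM of a list. The edgeR fit was tried on simulated counts, with 200 genes changed. The permutation tests of group differences and of correlations were tried on simulated normal values. A count of 0 was read as up to 3 counts, 0.107 to 0.272 CPM per cow, for counting error only. No 2 libraries held the same counts.

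The genes and the lists were chosen with earlier results of these data known. Named are all 9 genes, up to 4 genes for each role of the pathway lists (those with an unadjusted p under 0.05, then the most abundant), and the 3 genes most like each of the 5 tested ones. *C5AR1*, *CSF3*, *STAT5B*, *MPO*, *CYP4X1*, single marker genes and the ratios were named after values were seen. Markers were lists of other neutrophil, immature neutrophil, monocyte, eosinophil, T cell, B cell, cytotoxic and NK, platelet and erythroid genes. Methylation data were not used here.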

Additional observations from a re-analysis of the deposited data

Results flagged for a closer look

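*TREM1* in low replicate 10 was at 243 CPM, while the next cow of the low group was at 145 CPM and the lowest at 87.2 CPM. The gap to the next cow was 0.627 of the range of the group, just above the limit of 0.625 (Dixon's 95% limit for 6 values). It was 1 of 24 such comparisons, and 1 gap past the limit among 24 can arise by chance alone. High replicate 2, at 219 CPM, was not beyond the limit in the high group. Without low replicate 10 the log2 fold change of *TREM1* was 0.01 in place of -0.21.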

How the results depend on the processing

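The count of 0 of the 5 genes called held in all 23 alternatives of the fit, and 4 of 5 neighbours in the order of levels differed in all 14 alternatives of that test. Over all genes, DESeq2 called 1 (*CYP4X1*), and 22 of the 23 alternatives called 0. At an unadjusted p under 0.05, the count of members was 2 by DESeq2 and without the filter (*CSF3R* and *CD177*), 2 by limma-voom (*CSF3R* and *MMP9*), 0 with the haemoglobin share or the other neutrophil score as a covariate, and 0 to 2 with 1 cow left out; that of pathway genes was 1 with the T cell score as a covariate (*STAT5B*) and 0 to 3 with 1 cow left out. That of all genes was 348 by DESeq2, 414 without the filter, 120 with the haemoglobin covariate and 191 to 373 with 1 cow left out.

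The log2 fold change of *TREM1* was 0.030 with the haemoglobin covariate and -0.40 to 0.010 with 1 cow left out, and that of *PADI4* was -0.18 to 0.30. Correlated pairs numbered 8 when centred within each group, 1 after subtraction of the other neutrophil score and 1 to 6 with 1 cow left out. The r of *CD177* was 0.092 with *CSF3R* after that subtraction, -0.68 when centred within each group, and with 1 cow left out -0.20 to 0.12 with *CSF3R*, -0.30 to 0.11 with *TREM1* and -0.40 to 0.018 with *MMP9*. Relations with marker lists numbered 2 with RLE factors, 3 when centred within groups and 0 to 4 with 1 cow left out (0 without high replicate 3, 4 without low replicate 9). Ratios with an exact permutation p under 0.05 numbered 1 to 2 with 1 cow left out, an alternative added after seeing the data. The causes were not tested.

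The level of *CD177* rests on 0 to 18 counts per cow. Milk cortisol of single cows and cell counts of the blood were not used here.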
